A study of Bos taurus with 40 samples.

Results

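The genes described here are 8 transcription factors that govern the lineages of hormone-producing cells in the pituitary gland, POU1F1, PITX1, LHX3, HESX1, TBX19, NR5A1, FOXL2 and SOX2. They were chosen by name, not by measured values, though earlier results of these data were known. All 8 are present among the 13570 gene symbols of the count tables. In the embryo the anterior lobe of the pituitary gland forms from Rathke's pouch, whose patterning needs the homeodomain factors HESX1, PITX1 and LHX3 and whose progenitors carry SOX2. Later factors then divide the lineages. POU1F1 directs somatotrophs, lactotrophs and thyrotrophs, which make growth hormone, prolactin and thyroid-stimulating hormone, TBX19 directs corticotrophs and melanotrophs, which make pro-opiomelanocortin, and NR5A1 with FOXL2 directs gonadotrophs, which make LH and FSH. The adult gland keeps these later factors in its hormone cells, and SOX2 in its stem cells.

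RNA was sequenced from the pituitary gland, the liver, the longissimus dorsi muscle and the abdominal fat of 10 Korean cattle, 5 cows and 5 bulls, all over 22 months old, with 1 library per animal and tissue and 40 libraries in all. The labels name no treatment. Animals of each sex were numbered by the number in their sample titles, so cow 1 and bull 1 share only a number. Libraries of a sex with the same title number were taken as the same animal in every tissue. The labels do not give the stage of the estrous cycle or the part of the gland that was taken. Between 5173092 and 19165864 reads per library fell on genes (median 10005607), and between 9196932 and 19165864 in the pituitary gland. Reads of 3 Y-linked genes and XIST matched the labelled sex in 39 of the 40 libraries. The library labelled bull 3 liver had no read of the Y-linked genes and 966 CPM of XIST, inside the range of the cow livers (450.4 to 1985 CPM), and counts of factors called in fits that include it are given with and without it. Each tissue had its own markers, with summed levels of 134691 to 308304 CPM for 7 liver markers in liver, 6909.7 to 26206 CPM for 5 fat markers in fat and 155067 to 243886 CPM for 10 muscle markers in muscle, against at most 1881, 1215 and 1485 CPM in the other tissues. The fat of bull 5 had 28 reads of the Y-linked genes, where the fat of the other bulls had 454 to 722. All values below are CPM (read counts scaled to library size) scaled with TMM factors over the 40 libraries, and they compare 1 gene between libraries, never different genes, because transcript lengths were not used. In a whole tissue, fewer cells of a type and less RNA per cell cannot be told apart.

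The first comparison asked where the factors were expressed. In the pituitary gland all 8 had reads in every library, from 50 to 4222 per library by gene and animal. Against liver, 8 of 8 factors were higher in the pituitary gland (edgeR quasi-likelihood test with sex as a covariate, FDR adjusted P-value under 0.05), where 35.1% of the 13148 genes tested were higher. Against fat 7 of 8 were higher (32.8% of all genes), and against muscle 7 of 8 (32.5%). POU1F1, LHX3, TBX19, NR5A1, FOXL2 and SOX2, 6 of 8, were higher in the pituitary gland than in each of the 3 other tissues, where 15.5% of all genes were. The median log2 fold change of the 8 factors was 9.26 against liver, 7.62 against fat and 7.86 against muscle, beside 0.12, 0.02 and 0.03 over all genes. With FOXL2 and SOX2, which had no read in liver, at their lower bounds, the median against liver was 9.19. Without the library labelled bull 3 liver the counts were again 8, 7 and 7.

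**Figure D1:**
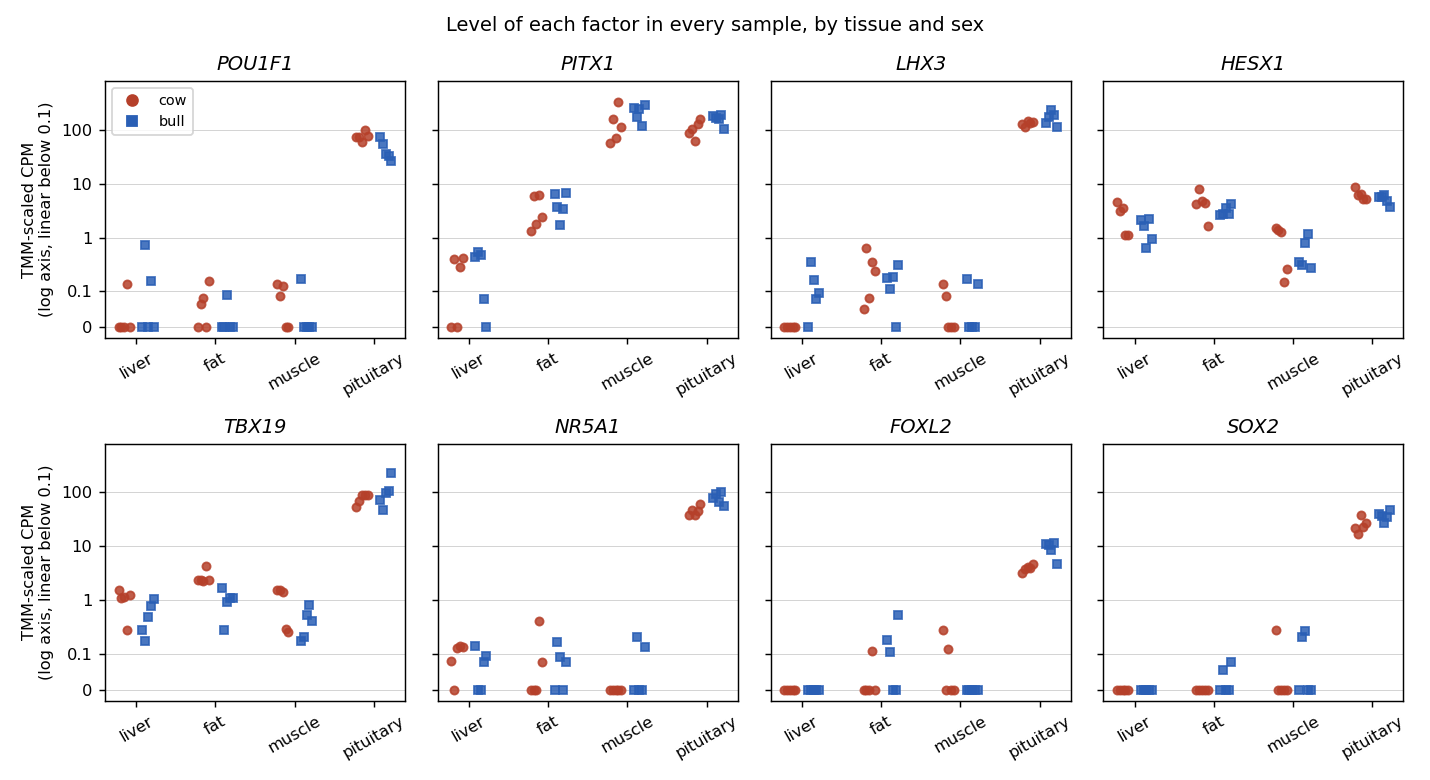
TMM-scaled CPM of each factor (vertical axis, logarithmic above 0.1 and linear below) in liver, fat, muscle and pituitary gland, with 1 point per library, circles for the 5 cows and squares for the 5 bulls. POU1F1, LHX3, NR5A1, FOXL2 and SOX2 lie near 0 outside the pituitary gland, PITX1 overlaps between muscle and the gland, and HESX1 overlaps between the gland, fat and liver.

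POU1F1, LHX3, NR5A1, FOXL2 and SOX2 were close to absent outside the gland. POU1F1 had 9256 reads over the 10 glands, but 7 reads over the 10 livers, 5 over the fat libraries and 4 over the muscle libraries, a pooled ratio of pituitary gland to liver of 728 (95% counting interval 353 to 1810). LHX3, a LIM homeodomain factor, had 23599 reads in the glands and 5, 31 and 4 reads in liver, fat and muscle. NR5A1, the nuclear receptor also called steroidogenic factor 1, had 10296 reads in the glands and 7, 13 and 3 in the other tissues, and its ratio to muscle was 1601 (interval 548 to 7763). FOXL2, a forkhead factor also known from the ovary, had 1086 reads in the glands, 0 in liver, 13 in fat and 3 in muscle. Set against 3 reads over the liver libraries, which a count of 0 allows, it was at least 199-fold higher in the pituitary gland. SOX2 had 4965 reads in the glands, 0 in liver, 2 in fat and 5 in muscle, and was at least 911-fold higher than in liver on the same basis. The two-sided 95% counting intervals used for the other ratios start lower, at 162 for FOXL2 and 740 for SOX2. These intervals and bounds cover counting error only. A list of 8 genes of the somatotroph, lactotroph and thyrotroph lineages, hormones and receptors together, also had reads elsewhere. Their summed level was 10.3 to 365 CPM in liver, 16.0 to 169 CPM in fat and 2.12 to 186 CPM in muscle, against 74324 to 265235 CPM in the glands. The origin of these reads, and of the few reads of the factors outside the gland, was not tested.

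PITX1, a homeodomain factor that also acts in the hind limb, was the exception. In muscle it had 57.1, 158, 70.1, 327 and 114 CPM in cows 1 to 5 and 248, 172, 244, 117 and 291 CPM in bulls 1 to 5, against 87.3, 103, 61.2, 125 and 157 CPM and 183, 164, 158, 186 and 103 CPM in the glands of the same animals. The ranges of both tissues overlapped widely. The log2 fold change of pituitary gland to muscle was -0.44 (SE 0.299, FDR adjusted P-value 0.199), and it was 0.53 with library sizes alone, so no direction is given. Fat held 1.34 to 6.80 CPM and liver 0 to 0.537 CPM. Muscle exceeded fat by a log2 fold change of 5.48 (SE 0.309, FDR adjusted P-value 9.02e-17), and fat exceeded liver by 4.05 (SE 0.508, FDR adjusted P-value 1.66e-10). The order of PITX1 levels was thus pituitary gland and muscle, then fat, then liver.

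HESX1, a homeodomain repressor of early pituitary development, and TBX19, the T-box factor of corticotrophs, had reads in all 40 libraries. HESX1 ranged from 3.72 to 8.77 CPM in the glands, 1.65 to 7.93 CPM in fat, 0.644 to 4.52 CPM in liver and 0.148 to 1.52 CPM in muscle. The glands and fat overlapped, with a log2 fold change of 0.59 (SE 0.294, FDR adjusted P-value 0.0743). With the animal as a block, since each animal gave all tissues, the difference passed the threshold (0.63, FDR adjusted P-value 0.0250), as it did with the likelihood ratio test, DESeq2 and library sizes alone, and without cow 2 (FDR adjusted P-value 0.0407). HESX1 was higher in the gland than in liver by a log2 fold change of 1.48 (SE 0.305, FDR adjusted P-value 4.9e-05) and than in muscle by 2.97 (SE 0.337, FDR adjusted P-value 3.94e-10). TBX19 was at 47.7 to 226 CPM in the glands, 0.277 to 4.24 CPM in fat, 0.179 to 1.53 CPM in liver and 0.174 to 1.56 CPM in muscle. No library of another tissue reached the lowest gland, and the log2 fold changes of TBX19 were 5.81 against fat (SE 0.318) and 7.12 against muscle (SE 0.382).

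The 3 other tissues were also set against each other. Fat exceeded liver for 5 of 8 factors, PITX1, LHX3, HESX1, TBX19 and FOXL2, where 35.4% of all genes were higher in fat. Muscle exceeded liver for PITX1 and SOX2 (34% of all genes higher) and was below it for HESX1 (28% lower). Muscle exceeded fat for PITX1 alone (26.8% of all genes higher) and was below it for LHX3, HESX1 and TBX19 (32.8% lower). The call of LHX3 between fat and liver was lost without cow 2 (FDR adjusted P-value 0.0641) and that of TBX19 without cow 4 (0.0592). SOX2, with 5 reads in muscle and 0 in liver, was not called by DESeq2 (FDR adjusted P-value 0.145) or without cow 1 (0.0524), and the likelihood ratio test also called FOXL2 higher in muscle than in liver (0.0462). Without the library labelled bull 3 liver the same 5 and 3 factors were called against liver. For LHX3, FOXL2 and SOX2 these calls rest on the few reads given above.

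The second comparison, named M1 in the study, asked in each tissue whether expression differed between males and females. In the pituitary gland 2 of 8 factors differed, NR5A1 and FOXL2, both higher in males (edgeR likelihood ratio test), where 0.745% of all genes tested differed. Both belong to the gonadotroph lineage. EdgeR's quasi-likelihood test called 0 of 8 (5 at an unadjusted P-value under 0.05, beside 1134 of the 13148 genes) and DESeq2 called the same 2. In the likelihood ratio test 1219 of the 13148 genes had an unadjusted P-value under 0.05, the background of such counts in the pituitary gland below. The other 6 factors did not pass the test. For 0 of the 8 factors were the sexes fully separate, where 1.34% of all genes were.

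**Figure D2:**
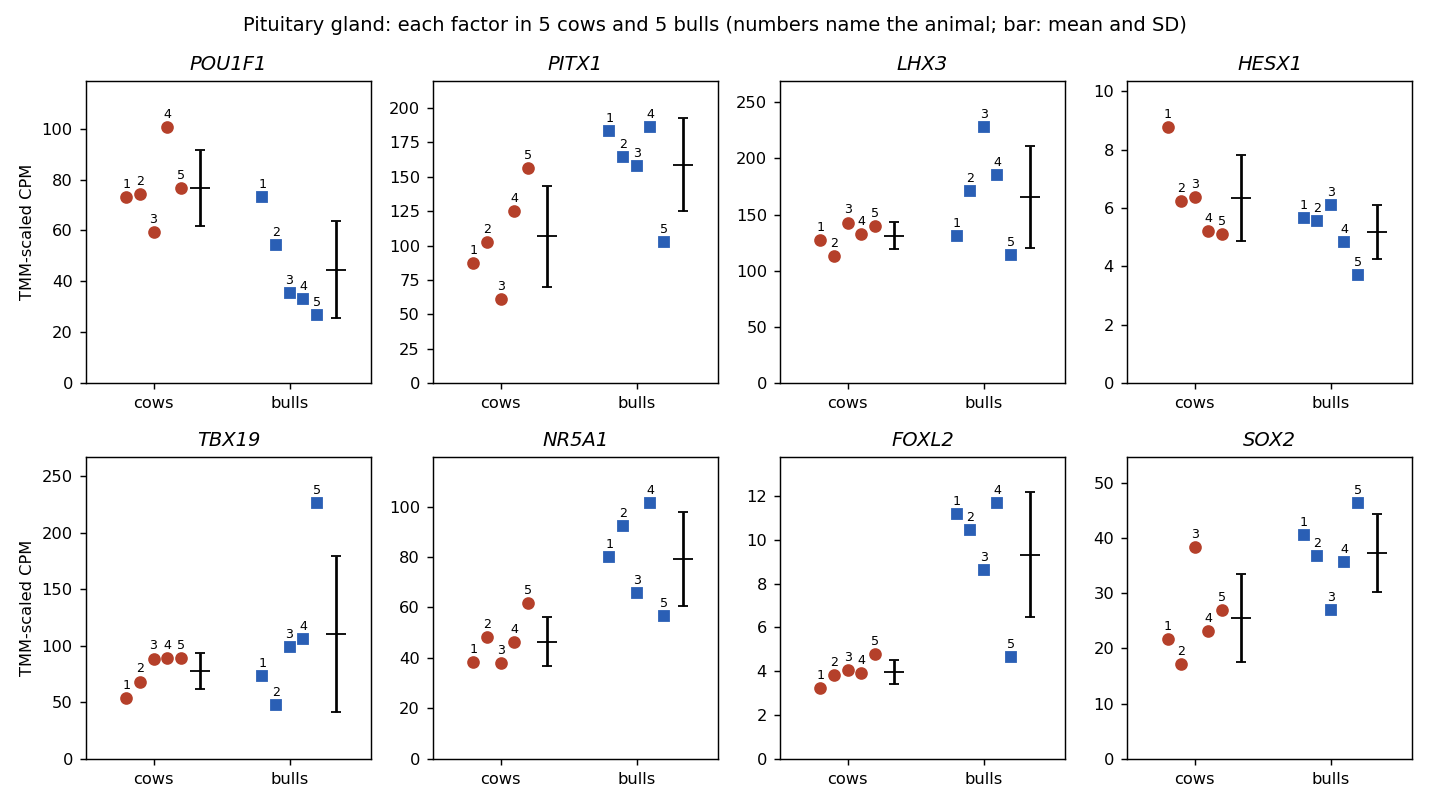
TMM-scaled CPM (vertical axes, from 0) of each factor in the pituitary glands of 5 cows (circles) and 5 bulls (squares), with the animal's number at each point and bars for the mean and SD of each sex. For FOXL2 and NR5A1 bulls 1 to 4 lie above all 5 cows and bull 5 lies among them, and for POU1F1 bulls 2 to 5 lie below all cows.

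FOXL2 had the largest difference of the 8. Its levels were 3.22, 3.83, 4.06, 3.90 and 4.79 CPM in cows 1 to 5 and 11.2, 10.4, 8.63, 11.7 and 4.63 CPM in bulls 1 to 5. Bulls 1 to 4 were above every cow, while bull 5 was below cow 5 and above the other 4 cows. The means were 3.96 ± 0.562 CPM in females and 9.31 ± 2.86 CPM in males (SD, n = 5 each), with a log2 fold change of 1.23 (SE 0.287, FDR adjusted P-value 0.00710). A two-sided exact permutation test of the levels gave a P-value of 0.0159, not adjusted for the number of genes, and the smallest that 5 against 5 allows is 0.00794. The quasi-likelihood test gave an FDR adjusted P-value of 0.143. Leaving out 1 animal at a time kept the call in 8 of 10 fits, and it was lost without cow 1 (FDR adjusted P-value 0.0564) or bull 4 (0.0551).

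NR5A1 followed the same animals. Its levels were 38.4, 48.2, 37.8, 46.2 and 61.9 CPM in the cows and 80.1, 92.3, 65.6, 101 and 56.5 CPM in the bulls. Bulls 1 to 4 were again above every cow, and bull 5 was below cow 5. The means were 46.5 ± 9.74 CPM in females and 79.2 ± 18.5 CPM in males (SD, n = 5 each), and the log2 fold change was 0.77 (SE 0.212, FDR adjusted P-value 0.0441, exact permutation P-value 0.0159). With the quasi-likelihood test the FDR adjusted P-value was 0.242, and with library sizes alone it was 0.148. The call was kept in 2 of 10 fits that left out 1 animal, those without cow 5 (0.00594) and without bull 5 (0.00657), and lost in the 8 fits without cow 1, 2, 3 or 4 or bull 1, 2, 3 or 4, with FDR adjusted P-values from 0.0671 to 0.211.

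POU1F1 had the opposite sign and did not pass the test. Its levels were 73.2, 74.2, 59.4, 101 and 76.5 CPM in the cows and 73.1, 54.4, 35.5, 33.1 and 26.7 CPM in the bulls. Bulls 2 to 5 were below every cow, and bull 1 lay among the cows. The means were 76.8 ± 14.9 CPM in females and 44.6 ± 19.0 CPM in males (SD, n = 5 each), with a log2 fold change of -0.79 (SE 0.266) and an FDR adjusted P-value of 0.163. The exact permutation P-value of POU1F1 alone was 0.0159. Without bull 1 the log2 fold change was -1.04 and passed (FDR adjusted P-value 0.0133), the only 1 of its 10 such fits that did.

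Of the pouch and progenitor factors, PITX1 was at 61.2 to 157 CPM in cows and 103 to 186 CPM in bulls, and bulls 1 to 4 were above every cow. Its log2 fold change was 0.57 (SE 0.255, FDR adjusted P-value 0.432, exact permutation P-value 0.0476). SOX2 had 21.8, 17.1, 38.3, 23.2 and 26.9 CPM in the cows and 40.6, 36.8, 27.0, 35.7 and 46.4 CPM in the bulls. Cow 3 was higher than bulls 2, 3 and 4, so the sexes overlapped, and the log2 fold change was 0.55 (SE 0.234, FDR adjusted P-value 0.392, exact permutation P-value 0.0476). LHX3 had 127, 113, 143, 133 and 139.9 CPM in the cows and 131, 171, 228, 185 and 114 CPM in the bulls. The cows lay close together (mean 131 ± 11.8, SD) and the bulls among and above them (166 ± 45.1), with a log2 fold change of 0.34 (SE 0.209, FDR adjusted P-value 0.634). HESX1 had 8.77, 6.24, 6.38, 5.22 and 5.13 CPM in the cows and 5.66, 5.55, 6.11, 4.85 and 3.72 CPM in the bulls. Its sexes overlapped, and the log2 fold change was -0.29 (SE 0.261, FDR adjusted P-value 0.720).

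TBX19 did not pass the test of sex. Its levels were 53.9, 68.4, 88.8, 89.0 and 89.5 CPM in the cows and 73.1, 47.7, 98.9, 106 and 226 CPM in the bulls. Bull 5 stood far above the other 9 glands, and bull 2 was the lowest. The log2 fold change was 0.50 (SE 0.336, FDR adjusted P-value 0.655), and without bull 5 it was 0.07.

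The glands also differed in a property of their libraries. Between 33.2% and 52.1% of the uniquely aligned reads lay outside genes, with means of 44.5% in cows and 38.3% in bulls. Cows 1 to 3 and bull 5 had 46.7% to 52.1%, and the other 6 glands 33.2% to 41.2%. In the same 4 glands GH1 and PRL took at most 17.5% of the reads on genes, against 23.6% to 31.6% in the others. PITX1 fell as this share rose, with Pearson's r of -0.94 and Spearman's rho of -0.92 over the 10 glands (permutation P-values adjusted over the 8 factors, 0.000640 and 0.00512), and r was -0.90 without the 2 glands farthest from the median and -0.94 for deviations from the sex means. NR5A1 had r of -0.77 and rho of -0.79 (adjusted permutation P-values 0.0497 and 0.0340), but r was -0.55 without the 2 farthest glands (permutation P-value 0.157), and it was -0.73 for deviations from the sex means (permutation P-value 0.0196). FOXL2 had r of -0.71 and rho of -0.76 (adjusted 0.0684 and 0.0391), and r was -0.61 without those 2 glands (permutation P-value 0.119), and it was -0.67 for deviations from the sex means (0.0220). Neither NR5A1 nor FOXL2 passed the threshold on the 8 remaining glands. For the other 5 factors r lay between -0.51 and 0.35. With the share as a covariate in M1, a fit added after seeing the data, NR5A1 had a log2 fold change of 0.54 (FDR adjusted P-value 0.226) and FOXL2 of 0.93 (0.120), neither past the threshold. POU1F1 passed it there, with -1.03 (SE 0.267, FDR adjusted P-value 0.0288). The quasi-likelihood form of that fit called 0 of 8 (4 at an unadjusted P-value under 0.05, beside 869 of the 13148 genes).

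Markers of other cells in the glands were also compared between the sexes, with the likelihood ratio test of M1 (0.745% of all genes called). Of 10 skeletal muscle markers MYH2 and MYH7 were higher in males, and the summed level of the 10 was 19.6 to 94.3 CPM in cows and 81.0 to 123 CPM in bulls. Of the 10, 9 had a positive log2 fold change (median 1.67) and 7 an unadjusted P-value under 0.05 in the likelihood ratio test. DESeq2 called 3, adding ACTA1, and 8 of the 10 were called without cow 5. Of 12 genes of the posterior lobe and hypothalamus AVP was higher in males, with sums of 50.4 to 186 CPM in cows and 56.1 to 133 CPM in bulls. The same 12 genes summed to 69.2 to 336 CPM in fat and 58.7 to 111 CPM in muscle, so their sum was not particular to the gland. A minimum count, set by edgeR's filterByExpr rule, kept 7 of the 12, and 0 were called with it. Of 6 fibroblast markers COL1A1 was higher in males, with sums of 493 to 713 CPM in cows and 677 to 1654.5 CPM in bulls. The highest fibroblast sum was that of bull 5, and bulls 1 to 4 reached at most 833 CPM. None of these markers was at 0 in every gland of a sex. The quasi-likelihood test called 0 genes in each of these lists. MYH7 and AVP were called in every fit that left out 1 animal. MYH2 was lost without cow 1, 2 or 3 or bull 2, and COL1A1 without cow 1, 2, 3 or 4 or bull 1 or 5. In the lists of endothelial, erythroid, liver, fat, and bone and cartilage markers 0 genes were called. Of 7 leukocyte markers 0 were called (3 at an unadjusted P-value under 0.05 by edgeR's likelihood ratio test, 0 called by DESeq2), and their sums were 70.1 to 142 CPM in cows and 52.8 to 158 CPM in bulls. The part of these markers in the differences of the factors was not tested.

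In the other tissues most of the 8 factors had few or no reads, which limits what a test of sex could call there. The filterByExpr rule of edgeR, which sets a minimum count, kept HESX1 alone in liver, 3 factors in fat (PITX1, HESX1 and TBX19) and PITX1 alone in muscle, and 0 of these were called with it. In liver 0 of 8 were called (0.175% of all genes), with 1 factor, LHX3, at an unadjusted P-value under 0.05 in edgeR's likelihood ratio test and 0 calls with the quasi-likelihood test and with DESeq2, which gave values for 6 factors, and 0 again without the library labelled bull 3 liver (2 at an unadjusted P-value under 0.05). In fat 0 of 8 were called (0.114%), with 1 factor, TBX19, at an unadjusted P-value under 0.05, and 0 calls by both other tools. In muscle 0 of 8 were called (0.517%), with 1 factor, NR5A1, at an unadjusted P-value under 0.05 on 3 reads in all, and 0 calls by both other tools. Of the 13148 genes, 980 in liver, 905 in fat and 1445 in muscle had an unadjusted P-value under 0.05 in the likelihood ratio test. Without the library labelled bull 3 liver the number in liver was 865. TBX19 in fat had 2.42, 2.34, 2.29, 4.24 and 2.36 CPM in the cows and 1.72, 0.277, 0.915, 1.09 and 1.08 CPM in the bulls. All 5 cows were above all 5 bulls, with a log2 fold change of -1.46 (SE 0.512, FDR adjusted P-value 0.435, exact permutation P-value 0.00794). That permutation P-value is not adjusted for the number of genes and is the smallest that 5 against 5 allows. The share of all genes with fully separate sexes in fat was not computed. PITX1 in muscle ranged from 57.1 to 327 CPM in cows and from 117 to 291 CPM in bulls, with a log2 fold change of 0.59 (SE 0.433, FDR adjusted P-value 0.681). Without cow 4, the highest of all, it was 1.13 and passed the threshold (0.0368).

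Over the 40 libraries, the model with sex and tissue (M2) called 1 of 8 factors, FOXL2, where 1.69% of all genes were called. M2 has no term for the animal, so its P-values take the 4 libraries of an animal as independent. FOXL2 had a log2 fold change of 1.19 (SE 0.351, FDR adjusted P-value 0.0359). Its reads outside the pituitary gland were the 0, 13 and 3 given above. The quasi-likelihood test called 0 of 8 in M2 (3 at an unadjusted P-value under 0.05, beside 2079 of the 13148 genes). Leaving out 1 animal at a time kept the call of FOXL2 in 3 of 10 fits, those without cow 4, cow 5 or bull 5, with FDR adjusted P-values from 0.0578 to 0.148 in the others. Without the library labelled bull 3 liver it was 0.0402. In M2 3 other factors passed the threshold in single fits of this kind, PITX1 without cow 4 (0.77, FDR adjusted P-value 0.0268), HESX1 without cow 4 (-0.67, 0.0347) or cow 5 (-0.73, 0.0109), and TBX19 without bull 5 (-0.82, 0.0439). HESX1, whose fitted log2 fold change was negative in each of the 4 tissues, had in M2 -0.57 (SE 0.208, FDR adjusted P-value 0.124) and passed the threshold with library sizes alone (-0.75, FDR adjusted P-value 0.0335). The test of whether the effect of sex differed between tissues called 0 of 8 factors (0.335% of all genes). FOXL2, LHX3 and TBX19, 3 factors, were at an unadjusted P-value under 0.05 in edgeR's likelihood ratio test, beside 1128 of the 13148 genes. The quasi-likelihood test and DESeq2 gave 0 calls. Without the library labelled bull 3 liver the likelihood ratio test again called 0 (4 at an unadjusted P-value under 0.05, beside 1152 of the 13148 genes). TBX19 came closest, with an FDR adjusted P-value of 0.183. Its log2 fold changes were 0.50 in the pituitary gland, -0.83 in liver, -1.26 in muscle and -1.46 in fat.

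Other transcription factors of the gland and the products of its lineages were taken from lists. Of 33 other pituitary factors 21 were present in the tables. Of these 17 were higher in the pituitary gland than in liver (35.1% of all genes), 14 than in fat (32.8%), 14 than in muscle (32.5%) and 11 than in all 3 (15.5%). Lower in the gland were 2 of the 21 against liver, 4 against fat and 4 against muscle. By sex in the pituitary gland 0 of the 21 were called (6 at an unadjusted P-value under 0.05 with edgeR's likelihood ratio test, and 0 called by the quasi-likelihood test and by DESeq2), and their median log2 fold change was 0.08, beside 0.52 for the 8 factors and 0 over all genes. GATA2, a zinc finger factor of gonadotrophs and thyrotrophs, had 13.2 to 18.9 CPM in cows and 17.5 to 32.0 CPM in bulls, with a log2 fold change of 0.61 (SE 0.226, FDR adjusted P-value 0.249). LHX4, the paralog of LHX3, was at 2.73 to 8.08 CPM in cows and 2.14 to 10.4 CPM in bulls (-0.35, FDR adjusted P-value 0.809).

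**Figure D3:**
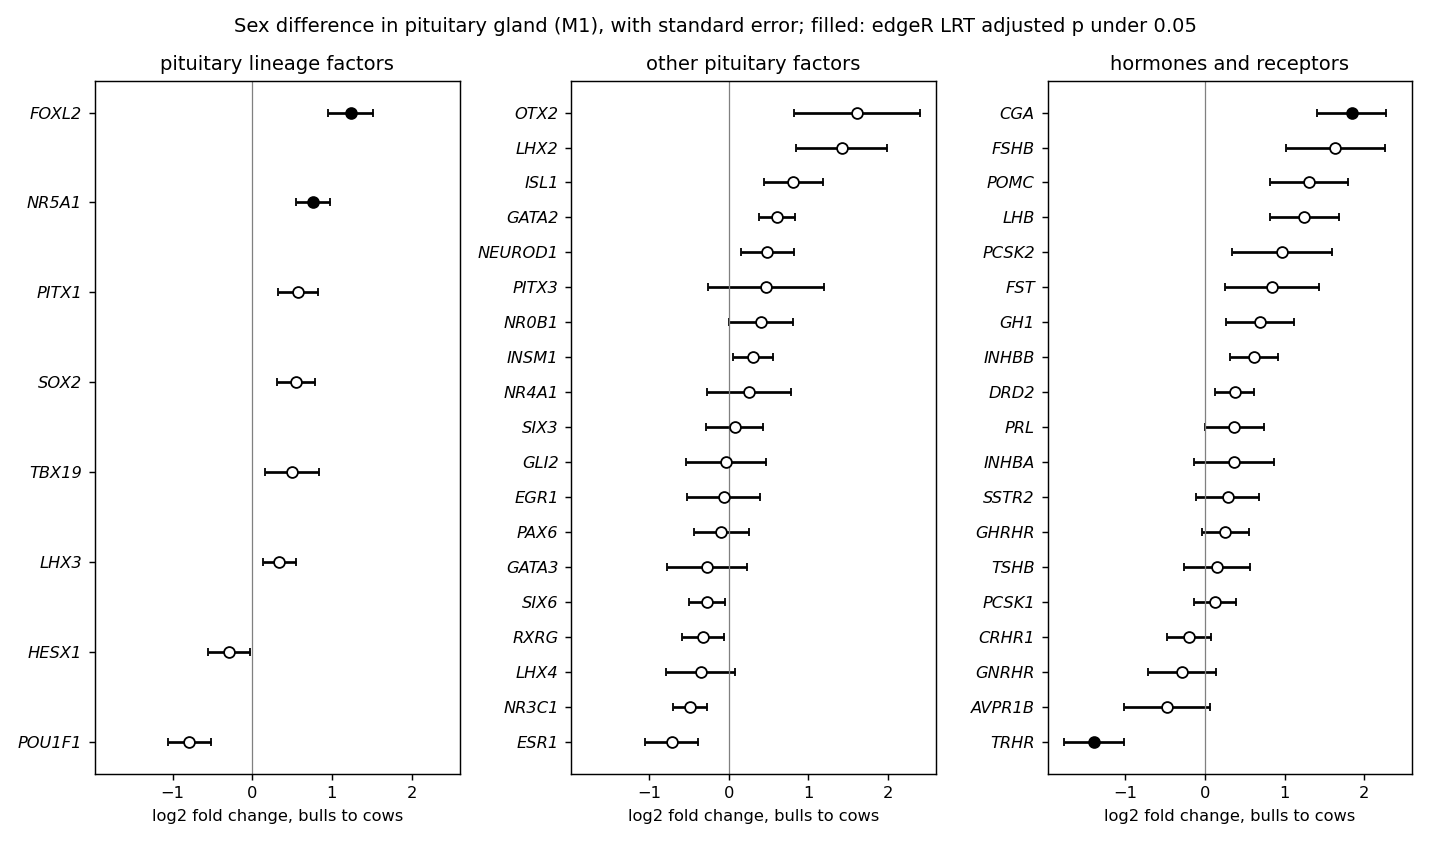
Log2 fold change of bulls to cows by M1 in the pituitary gland (horizontal axes) with its standard error, for the 8 factors, 19 of the 21 other pituitary factors and 19 hormone, receptor and processing genes of the lineages. Filled points passed the edgeR likelihood ratio test, which were FOXL2 and NR5A1 among the 8 factors, none of the 19 others, and CGA and TRHR among the lineage genes.

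Of 8 genes of the gonadotroph lineage 1 was called (4 at an unadjusted P-value under 0.05), CGA, the alpha subunit shared by LH, FSH and thyroid-stimulating hormone. CGA had 2619, 2380.4, 1339, 3053 and 2840.0 CPM in the cows and 8418, 6657, 12625, 14537 and 1465 CPM in the bulls. Bulls 1 to 4 were above every cow and bull 5 was below all cows but cow 3, the same split of animals as for FOXL2 and NR5A1 in the first 4 bulls, and the log2 fold change was 1.84 (SE 0.437, FDR adjusted P-value 0.0125). The call of CGA was lost with the quasi-likelihood test (0.242) and without cow 2, cow 3, bull 3 or bull 4 (0.0621 to 0.0750). LHB, the beta subunit of LH, had a log2 fold change of 1.25 (FDR adjusted P-value 0.206) and FSHB, that of FSH, of 1.63 (0.297), while GNRHR, the receptor for gonadotrophin-releasing hormone, had -0.29 (0.850). LHB was called without bull 5 (FDR adjusted P-value 0.0110) and FSHB without cow 1 (0.0148), each in 1 of its 10 such fits. Summed over the 8 genes, bulls 1 to 4 had 8311 to 16210.1 CPM, bull 5 had 1813 CPM and the cows 1579 to 3856 CPM. With the share of reads outside genes as a covariate, the call of CGA was lost as well (log2 fold change 0.96, FDR adjusted P-value 0.623).

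In the lineages of POU1F1, 2 of 8 genes were called, CGA, which thyrotrophs share, and TRHR, the receptor for thyrotrophin-releasing hormone. TRHR had 37.0, 36.9, 39.3, 19.5 and 12.5 CPM in the cows and 20.9, 12.6, 6.42, 5.82 and 9.59 CPM in the bulls. Cows 1 to 3 were above all bulls and cows 4 and 5 lay among them, and the log2 fold change of TRHR was -1.39 (SE 0.376, FDR adjusted P-value 0.0394), the sign of POU1F1. The call of TRHR was lost with the quasi-likelihood test (0.248) and in the fits without cow 1, 2 or 3 or bull 2, 3, 4 or 5 (0.0761 to 0.171). With the share of reads outside genes as a covariate it was lost too (log2 fold change -0.94, FDR adjusted P-value 0.572), and cows 1 to 3 are among the 4 glands with a high share. The hormone genes that POU1F1 is known to act on did not pass the test. GH1, growth hormone, ranged from 6616 to 26188 CPM in cows and 9849.8 to 36809.7 CPM in bulls (0.69, FDR adjusted P-value 0.638), PRL, prolactin, had a log2 fold change of 0.37 (0.757), TSHB, the beta subunit of thyroid-stimulating hormone, of 0.15 (0.940), and GHRHR, the receptor for growth hormone-releasing hormone, of 0.26 (0.794). Of 5 corticotroph and melanotroph genes 0 were called (1 at an unadjusted P-value under 0.05 with edgeR's likelihood ratio test, 0 called by DESeq2 and the quasi-likelihood test). POMC, pro-opiomelanocortin, had 7629.7, 9782, 7721, 5263 and 18737 CPM in the cows and 9127, 7819.8, 15421, 30940.5 and 58536 CPM in the bulls. Bull 5 was the highest of the 10 glands, as for TBX19, and the log2 fold change of POMC was 1.31 (SE 0.491, FDR adjusted P-value 0.280). CRHR1, the receptor for corticotrophin-releasing hormone, had -0.20 (0.836). Of 11 stem and folliculostellate cell genes, the cells that SOX2 marks, 0 were called (3 at an unadjusted P-value under 0.05 with edgeR's likelihood ratio test, 0 called by DESeq2). SOX2 itself is 1 of these 11. Their sum was 815 to 1226 CPM in the glands, 1831 to 3416 CPM in liver and 4389 to 18918 CPM in fat, so it was not particular to the gland.

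**Figure D4:**
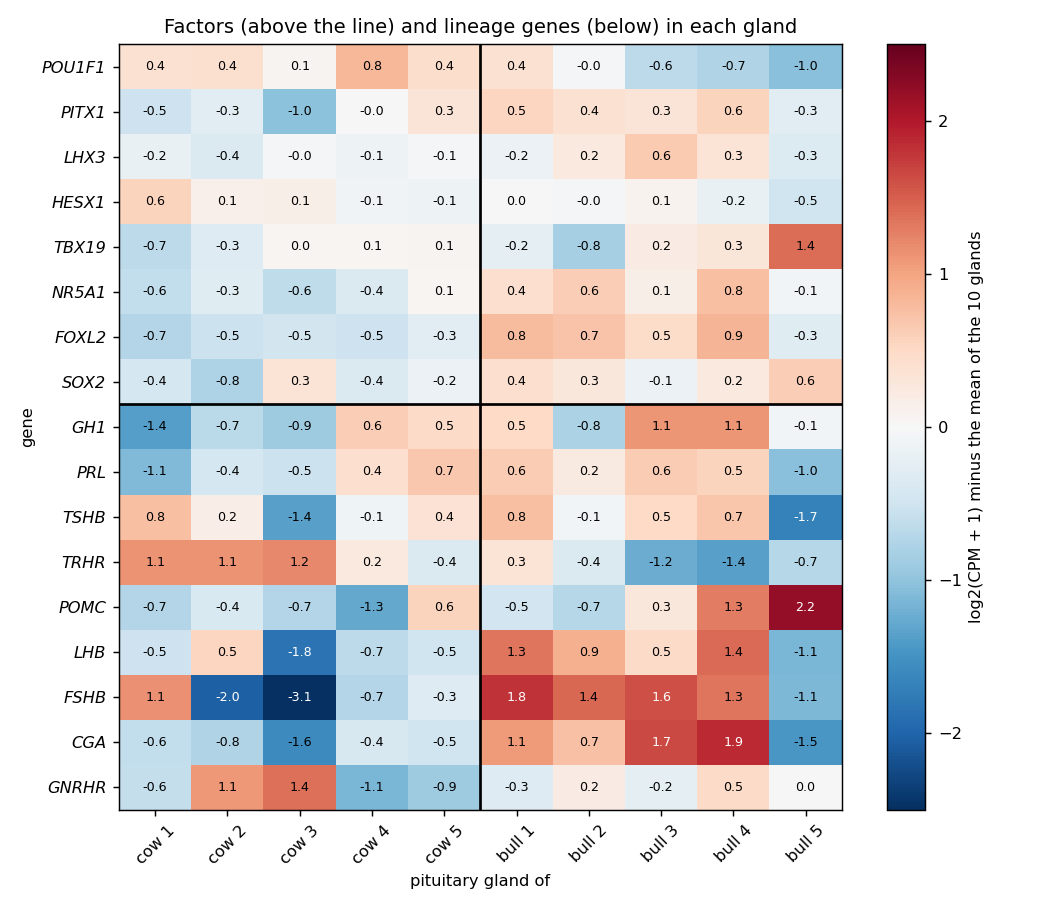
Difference of log2(CPM + 1) from the mean of the 10 glands (colour and printed value) for the 8 factors, above the horizontal line, and 9 lineage genes, below it, with cows left and bulls right of the vertical line. Bulls 1 to 4 are above the mean for FOXL2, NR5A1, PITX1, LHB, FSHB and CGA, and bull 5 is below it for these 6 genes and highest for TBX19 and POMC.

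The last comparison asked whether a factor followed the genes of its lineage from gland to gland, in 17 pairs chosen by known roles. Over the 10 glands 5 of the 17 pairs had a Pearson's r of log2(CPM + 1) with an adjusted permutation P-value under 0.05, and in 2 of these, FOXL2 with NR5A1 and FOXL2 with CGA, the glands fell into 2 clusters by FOXL2, bulls 1 to 4 and the other 6, so no pooled r is given. Within the 6 lower glands r was 0.82 for FOXL2 and NR5A1 (exact permutation P-value 0.0556) and -0.27 for FOXL2 and CGA (0.593). TBX19 and POMC had r of 0.80 and rho of 0.70 (adjusted permutation P-values 0.0244 and 0.0888). Without the 2 glands farthest from the median of TBX19, r was 0.54 (adjusted 0.398), and without bull 5 alone it was also 0.54, so this relation rests on bull 5. PITX1 and LHB had r of 0.82 and rho of 0.88 (adjusted permutation P-values 0.0216 and 0.0141), and NR5A1 and LHB had r of 0.80 and rho of 0.84 (0.0244 and 0.0202). Without the 2 farthest glands r was 0.69 for both pairs (adjusted 0.272 each), and neither passed the threshold on the 8 remaining glands. PITX1 and NR5A1 also followed the share of reads outside genes (r -0.94 and -0.77), whose part in these correlations was not tested.

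**Figure D5:**
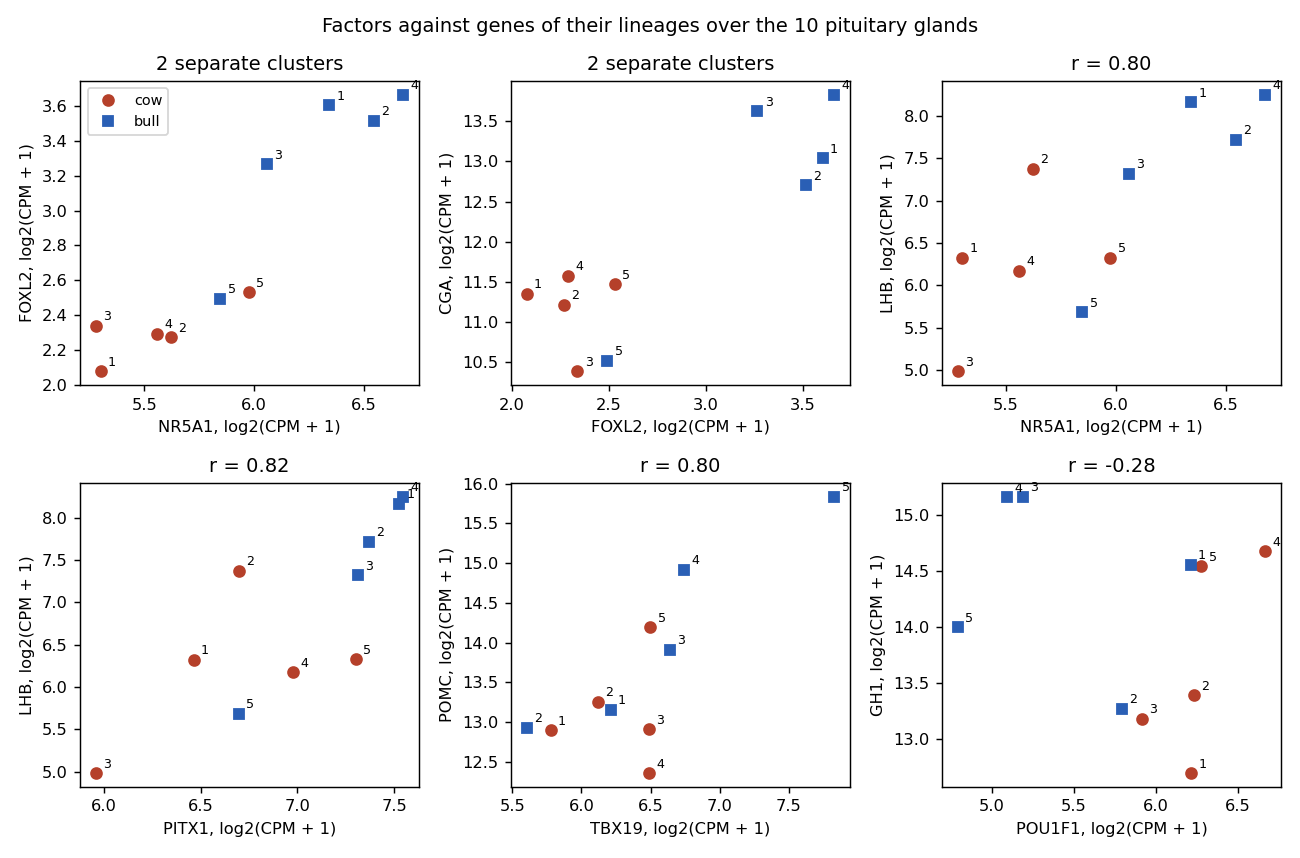
Log2(CPM + 1) of a factor (horizontal axes) against a gene of its lineage (vertical axes) in the 10 pituitary glands, with circles for cows, squares for bulls and the animal's number at each point. Bulls 1 to 4 form a separate cluster by FOXL2, bull 5 lies at the upper end of TBX19 and POMC, and POU1F1 and GH1 have an r of -0.28.

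Computed on deviations from the sex means, 2 of the 17 pairs stayed past the threshold, FOXL2 with NR5A1 (r 0.80, adjusted permutation P-value 0.0304) and TBX19 with POMC (r 0.79, 0.0406). Bull 5 was the highest gland for both TBX19 and POMC, and the deviations were not computed without it. For POU1F1 the 4 pairs with GH1, PRL, TSHB and GHRHR had r of -0.28, 0.13, 0.32 and -0.25, with adjusted permutation P-values from 0.569 to 0.761. POU1F1 and TBX19, which direct different lineages, had r of -0.64 (adjusted 0.0874) and -0.09 without the 2 farthest glands. NR5A1 and GNRHR had r of -0.04, and TBX19 and CRHR1 of 0.22.

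Among the 10434 genes with a mean of at least 1 CPM in the glands, those most like each factor were found by Pearson's r over the 10 glands, as a description that shares depth and library quality. POU1F1 was most like KIAA1797 (r 0.91), ANK3 (0.90) and ST6GALNAC5 (0.88). LHX3 was most like LMO1 (0.94), CXXC5 (0.90) and LSM1 (0.89), and HESX1 was most like KCNA4 (0.94), TEX9 (0.92) and RARS2 (0.91). PITX1 was most like SNRPN (0.98), MRPS26 (0.96) and CTDNEP1 (0.96), and its own r with NR5A1 was 0.88. TBX19 was most like GPC3, VAX1 and CDC25B (0.93 each). NR5A1 was most like MOCS1 (0.95), UBE2L6 (0.95) and SULT2B1 (0.94), FOXL2 was most like SYT5 (0.96), BFSP2 and P2RX2 (0.93 each), and SOX2 was most like CHAF1A, TGFB2 (0.89 each) and ARHGEF5 (0.88).

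Whether reads were counted by strand was not stated, so reads from genes that overlap cannot be told apart. In the RefSeq annotation of ARS-UCD2.0, another assembly than the one used for alignment, SOX2 overlaps the long noncoding RNA LOC100849009, LHX3 lies within 1000 bases of QSOX2 and HESX1 within 1000 bases of APPL1. Of these neighbours APPL1 has a row in the count tables and QSOX2 and LOC100849009 have none.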

How the data were processed

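The authors used Trimmomatic on the paired-end reads, Bowtie2 in TopHat2 for alignment to bosTau7 and HTSeq for counts per gene. The deposited values are raw counts by symbol. Rows without a gene name (0.114% to 2.69% of the reads on genes) were left out of library sizes. Genes with a read in any of the 40 libraries were tested (13148). M1 (sex, per tissue), M2 (sex and tissue) and their interaction were fitted in edgeR 4.0.16 (R 4.3.3) with TMM, glmFit and glmLRT, and tissues were compared with the quasi-likelihood test (sex as covariate), all with Benjamini-Hochberg adjustment over all genes. Log2 fold changes are male to female, prior count 0.125. DESeq2 1.42.0 was an alternative. Correlations used 100000 permutations. The methods were tested on simulated data. The factors and all lists were chosen with earlier results of these data known. Genes named are the 8 factors, a set list of hormone, receptor and factor genes, those of the lineage lists past the M1 test, and the 3 genes most like each factor. Contrasts among liver, fat and muscle were added later. Tissues of an animal were paired by the number in the sample titles (median r of same-animal deviations 0.208, of other animals -0.0641). Replicates are separate animals. Sequences were not used here, and some genes of the set list are not reported here.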

Additional observations from a re-analysis of the deposited data

Results flagged for a closer look

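TBX19 in the fat of cow 4 stood at 4.24 CPM (73 reads), while the fat of the other 4 cows had 2.29 to 2.42 CPM. Its gap to the nearest cow was 0.935 of the range of the 5, above Dixon's 95% critical value of 0.71. Of 26 groups of 5 libraries tested in this way, 1 was flagged, and chance alone flags about 1 in 20.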

How the results depend on the processing

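Of the counts over the 8 factors and the 17 pairs, 131 values under an alternative stayed within 1.5 times the reported count and 29 did not. Many of the 131 are counts of 0 that stayed 0, for sex in liver, fat and muscle and for the interaction. In liver, fat and muscle most factors had too few reads to be called. The rule compares counts only, so a kept count can hold other factors. For sex in the pituitary gland the count of 2 became 1 with library sizes alone (FOXL2), 0 with the quasi-likelihood test, 1 with the share of reads outside genes as a covariate and 0 with that covariate in the quasi-likelihood test, and 0 to 2 on leaving out 1 animal. The 1 with the covariate was POU1F1, lower in males, so the calls of NR5A1 and FOXL2 were both lost there. Without bull 1 the 2 called were POU1F1 and FOXL2. In M2 the count of 1 became 2 with library sizes alone, 0 with the quasi-likelihood test and 0 to 3 on leaving out 1 animal. In muscle it was 0 to 1 on leaving out 1 animal, the 1 being PITX1. The count of 5 of the 17 correlations became 3 with library sizes alone, 2 on deviations from the sex means, 1 without the 2 farthest glands, and 1 to 7 on leaving out 1 gland. PITX1 in the pituitary gland against muscle changed sign with library sizes alone (0.53). The causes were not tested. The replicate block (animal) raised the count of factors higher in the pituitary gland than in fat from 7 to 8, adding HESX1, and left the counts against liver (8) and muscle (7) unchanged; M1 allows no such block, since each animal has 1 library per tissue. Of the 2 factors called by sex in the pituitary gland, FOXL2 was the less deeply counted, with 1086 reads over 10 glands.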
